A study of Mus musculus with 6 samples.

Results

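The replication-dependent histone genes of the mouse were examined in tumour-associated macrophages from CT26 tumours. The members are the rows of the deposited expression table whose symbol begins with Hist1h, Hist2h, Hist3h or Hist4h. They number 62 of 15487 genes and fall into 5 genes of linker histone H1, 17 of H2A, 18 of H2B, 10 of H3 and 12 of H4. The table's older symbols are used throughout. CT26 is a mouse colon cancer cell line. Macrophages were sorted on day 15 from tumours labelled Sg-Con (3 libraries) or Sg-C3 (3 libraries), names taken to mean that the cancer cells carried a control guide or one against complement C3. All 6 macrophage samples come from the BALB/c strain and are labelled wild type, so the edited cells are the tumour cells. The labels do not say how the guides were delivered or whether the lines are clones, nor whether each library is a separate mouse, so p-values measure only spread between libraries, which may be technical.

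Nucleosomes wrap DNA around a core of H2A, H2B, H3 and H4, and H1 binds the linker DNA between cores. A dividing cell must double its histones during S phase, and the cluster genes supply them. They lie in dense clusters, carry no introns in their usual form, and are transcribed under NPAT, a factor activated by cyclin E and CDK2. Their messages are the main animal mRNAs without a poly(A) tail. The 3′ end is instead cut after a short stem-loop that is bound by SLBP, and the messages are degraded when DNA synthesis stops. Some cluster genes also give longer, polyadenylated messages, mainly in cells that have left the cell cycle. The labels name an mRNA kit, and how well messages without a tail were captured is not known for any level given here.

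The stem-loop could be read from the GENCODE transcripts (release M21, GRCm38) of 38 of the 62 members. It was sought as a stem of 6 base pairs around a loop of 4 bases. The stem had to begin with GG and the loop with TT. From after GG to the base after TT, almost all bases had to be C or T. The stem-loop is shown because it sets these messages apart from other mRNAs, and because H4 genes carry another stem than the rest. Capitals mark the loop, in 5′ to 3′ direction.
H1, H2A, H2B and H3 (23 members, Hist1h1c, Hist1h1d and Hist3h2a among them): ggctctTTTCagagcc
H2B and H3 (4 members, Hist1h3e among them): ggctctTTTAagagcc
H2A (Hist2h2ac alone): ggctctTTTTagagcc
H4 (6 members, Hist1h4m among them): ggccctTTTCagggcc
H4 (Hist1h4i and Hist2h4): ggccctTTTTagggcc
H4 (Hist1h4b and Hist1h4j): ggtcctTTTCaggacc

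All 10 H4 stem-loops thus differed from the 28 of the other classes in the paired bases. The loops found varied only at the last position, but the search itself set or nearly set the bases before it. In the other 24 members no such element was found in the transcript searched, the longest protein-coding one or, where none is, the longest. Some of these transcripts are short, such as that of Hist1h4k at 312 bases, and may not reach the 3′ end. The genes for Hist1 lie on chromosome 13, those for Hist2 on chromosome 3, those for Hist3 on chromosome 11 and Hist4h4 on chromosome 6.

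Histone cluster RNA was low in these cells except for a handful of genes, and it was lower in macrophages from Sg-C3 tumours. The summed FPKM (fragments per kilobase and megaread) of the 62 members was 187.51, 187.61 and 159.04 in the Sg-Con libraries and 87.46, 79.65 and 102.12 in the Sg-C3 libraries. The sum therefore stood at 178 ± 16.5 FPKM (SD, n = 3) in Sg-Con and 89.7 ± 11.4 in Sg-C3 (n = 3), and the groups did not overlap. Most of this difference lay in 2 genes, the linker histone gene Hist1h1c with 61.97% of it and the H2B gene Hist1h2bc with 15.4%. In bulk samples, fewer cells of a type and less RNA per cell cannot be told apart. The ratio of Sg-C3 to Sg-Con was 0.504 as deposited and 0.5645 after median-ratio scaling. Without Hist1h1c the sum was 94.3 ± 5.38 FPKM in Sg-Con and 60.7 ± 5.68 in Sg-C3, still without overlap.

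**Figure D1:**
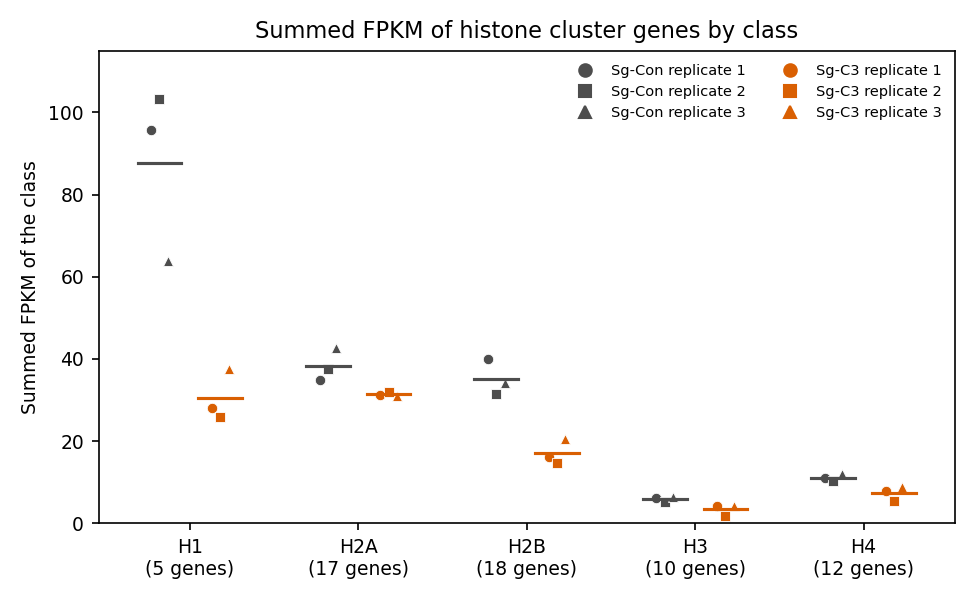
Summed FPKM of the members of each histone class (y axis) in the 3 Sg-Con (grey) and 3 Sg-C3 (orange) libraries, with the group mean as a line. H1 falls from between 63.9 and 103 FPKM to between 25.9 and 37.6, while the H2A groups lie close together at 34.7 to 42.8 and 30.9 to 31.9.

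Of the 62 members, 17 reached 1 FPKM in at least 3 of the 6 libraries and were tested with limma on log2(FPKM + 1) together with all other genes. Of these, 6 were lower in Sg-C3 at an adjusted p under 0.05, none was higher and 11 did not pass. The 6 are 35.3% of the tested members, against 31.7% of all 11198 tested genes called lower, 12.7% called higher and 44.4% called in either direction, so that, as deposited, the share of lower calls is near that of the table as a whole. The same 6 members were called after median-ratio scaling and after quantile normalization, where 19.1% and 21.96% of all tested genes were lower. With 1 library left out, the shares lay closest without Sg-Con replicate 3, where 27.3% of tested members and 25.1% of genes were lower. They lay furthest apart without Sg-C3 replicate 2 (6 of 16 members, 37.5%, against 17.9% of genes). There Hist3h2a was called and Hist1h2ba was not. The median log2 difference of the tested members was -0.54, beside -0.16 over all tested genes, and after median-ratio scaling these became -0.39 and -0.02. Of all calls in the table, 71.5% were lower as deposited and 50.5% after that scaling. By class, 2 of 3 tested H1 genes, 3 of 6 H2B genes and 1 of 2 H4 genes fell, while none of 6 tested H2A genes passed and no H3 gene could be tested. In 8 of the 17 every Sg-C3 library was below every Sg-Con library and in none above, against 41.4% of all tested genes below, 16.2% above and 57.6% in either direction. With a filter on a mean of at least 1 FPKM instead, chosen after seeing the data, 5 of 13 tested members were lower, against 31.4% of all genes. Hist1h1d and Hist2h2be passed the filter only through their Sg-Con values, since no Sg-C3 library reached 1 FPKM, so that they had to differ. Both are included in the 6, in the counts by class and in the 8 without overlap. The other 15 tested members reached 1 FPKM in both groups, and of these Hist1h1c, Hist1h2bc, Hist1h2ba and Hist1h4i were called lower.

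**Figure D2:**
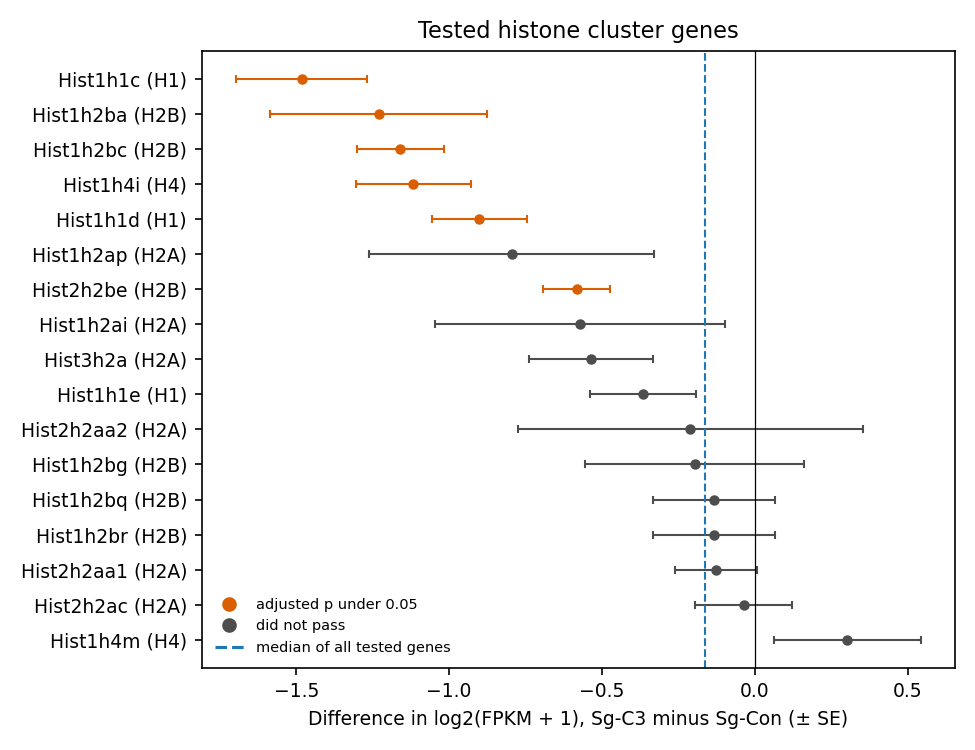
Difference in log2(FPKM + 1), Sg-C3 minus Sg-Con, with limma's SE, for the 17 tested members. Orange marks the 6 with an adjusted p under 0.05, all to the left of the dashed line at the median of all tested genes (-0.16), and Hist1h4m is the single member to the right of 0.

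H1 genes. Hist1h1c, which codes for the somatic linker histone H1.2, had the highest level of all members in both groups. It read 91.77, 99.31 and 60.30 FPKM in Sg-Con and 26.35, 24.85 and 35.99 FPKM in Sg-C3. The lowest Sg-Con library stood well above the highest Sg-C3 library, and the third replicate of each group lay nearest to the other group. In both groups the third library also has a title of another style than the rest, and what the styles mark is not stated. With title style as a covariate Hist1h1c was still called lower (limma adjusted p = 0.00833). The mean fell 2.88-fold, from 83.8 ± 20.7 to 29.1 ± 6.05 FPKM (log2 difference -1.48, SE 0.22, limma adjusted p = 0.00335). Hist1h1d, which codes for another somatic linker histone, read 2.0, 2.08 and 1.36 FPKM in Sg-Con and 0.60, 0.61 and 0.30 in Sg-C3. The groups were separate, at a per-length level far below that of Hist1h1c, and the log2 difference was -0.90 (SE 0.15, limma adjusted p = 0.00536). Hist1h1e, the third tested H1 gene, read 1.19, 1.21 and 1.24 FPKM in Sg-Con and 1.03, 0.32 and 0.89 in Sg-C3. Its groups did not overlap either, but it did not pass (log2 difference -0.37, SE 0.17, adjusted p = 0.123). Hist1h1b was below 1 FPKM in every library, at 0.41, 0.56 and 0.75 in Sg-Con, listed at 0 in 2 Sg-C3 libraries and at 0.14 in the third. Hist1h1a stayed at or below 0.43 FPKM and its groups overlapped.

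**Figure D3:**
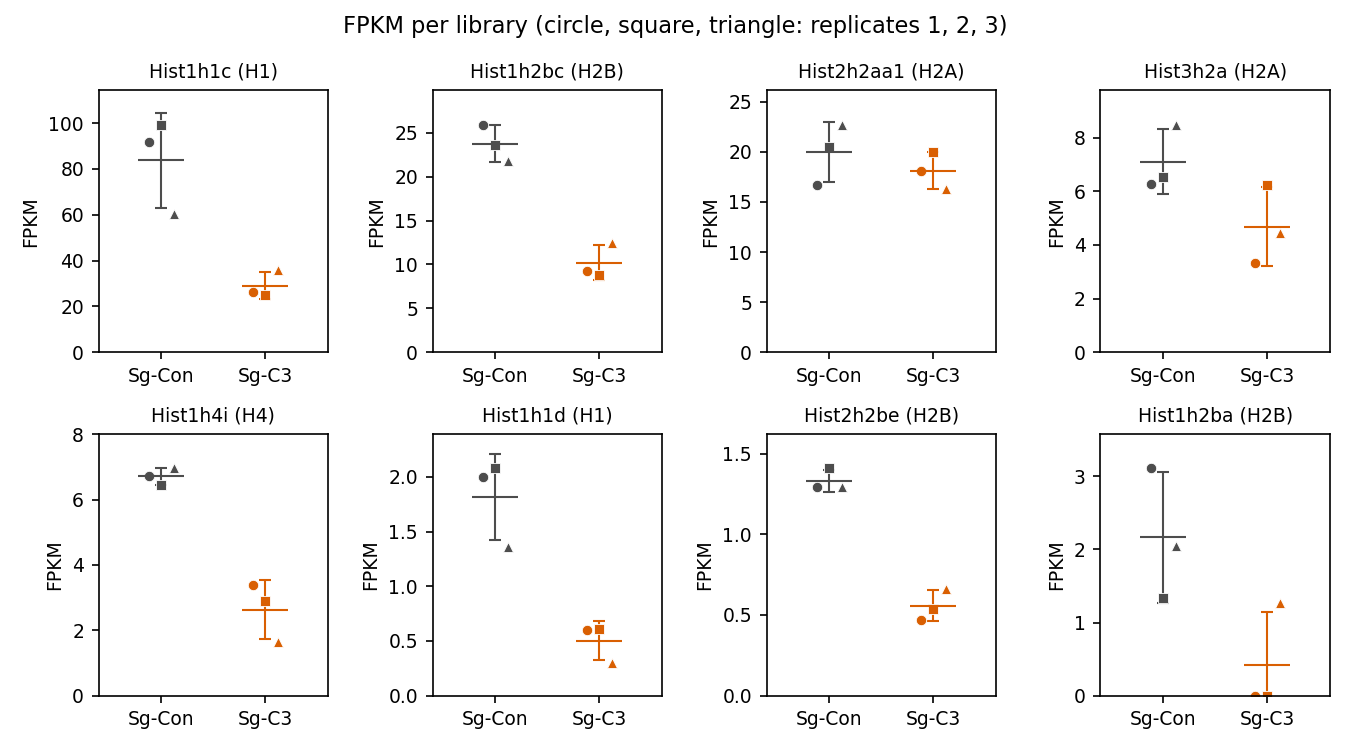
FPKM per library for the 6 members called lower and for Hist2h2aa1 and Hist3h2a, with mean and SD of each group of 3 (each panel has its own axis from 0). Hist1h1c, Hist1h2bc, Hist1h4i, Hist1h1d, Hist2h2be and Hist1h2ba are separate between groups, whereas Hist2h2aa1 overlaps at 16.3 to 22.7 FPKM.

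H2B genes. Hist1h2bc, whose RNA codes for a common form of core histone H2B, read 25.93, 23.60 and 21.76 FPKM in Sg-Con and 9.24, 8.81 and 12.46 FPKM in Sg-C3. Every Sg-C3 library was below every Sg-Con library, with a 2.34-fold lower mean (23.8 ± 2.09 against 10.2 ± 1.99 FPKM, log2 difference -1.16, SE 0.14, limma adjusted p = 0.00221). Hist2h2be, a further H2B gene, read 1.29, 1.41 and 1.29 FPKM in Sg-Con and 0.47, 0.54 and 0.66 in Sg-C3. The values of a group were tight and the groups lay apart (log2 difference -0.58, SE 0.11, adjusted p = 0.00685). Hist1h2ba, which codes for a testis form of H2B, read 3.11, 1.34 and 2.04 FPKM in Sg-Con, was listed at 0 in 2 Sg-C3 libraries and read 1.26 in the third. It was called lower (log2 difference -1.23, SE 0.35, limma adjusted p = 0.0274), but the call was lost when either the first or the third Sg-Con library was left out (adjusted p = 0.0751 and 0.0567), and when either the first or the second Sg-C3 library was (0.0900 and 0.0942). A share of 41.8% of the 36-base windows of its transcript also occurs in Hist1h2bq, so its reads may come from other H2B genes.

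The other 3 tested H2B genes did not pass. Hist1h2bg read 2.93, 0.44 and 1.35 FPKM in Sg-Con and 0.56, 1.32 and 1.44 in Sg-C3, a range within Sg-Con that covers all of Sg-C3. Hist1h2bq and Hist1h2br carried the same value in every library, from 0.63 to 1.63 FPKM, and share 100% and 99.8% of their 36-base windows with each other, so they count as 1 measurement. Of the 12 H2B members that were not tested, none exceeded 1.12 FPKM in any library.

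H2A genes. Hist2h2aa1 held the highest H2A level, and its difference did not pass. It read 16.74, 20.52 and 22.72 FPKM in Sg-Con and 18.05, 19.99 and 16.33 in Sg-C3. The groups overlapped (20.0 ± 3.02 against 18.1 ± 1.83 FPKM, log2 difference -0.13, SE 0.13, adjusted p = 0.457). Its copy Hist2h2aa2 read 2.55, 1.29 and 2.55 FPKM in Sg-Con and 4.19, 0 and 2.58 in Sg-C3. In both genes 0% of the 36-base windows are unique, so neither value can be assigned to 1 gene with certainty. The main sharers were the annotated genes Gm20633 for Hist2h2aa1 and Gm20632 for Hist2h2aa2. The sum of both was 22.1 ± 3.002 FPKM in Sg-Con and 20.4 ± 1.70 in Sg-C3. Behind Hist1h1c, mean FPKM was higher for Hist1h2bc than for Hist2h2aa1 in Sg-Con and lower in Sg-C3. This order did not hold in every Sg-Con library, since the third read 21.76 FPKM for Hist1h2bc and 22.72 for Hist2h2aa1. The H2A members held 21.5% of all histone cluster FPKM in Sg-Con and 35.0% in Sg-C3.

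Hist3h2a, an H2A gene outside the 2 large clusters, read 6.26, 6.55 and 8.49 FPKM in Sg-Con and 3.33, 6.25 and 4.44 in Sg-C3. The highest Sg-C3 library came just under the lowest Sg-Con library, and the difference did not pass (log2 difference -0.54, SE 0.20, adjusted p = 0.0662), though it did without Sg-C3 replicate 2 (adjusted p = 0.0331). Of its transcript windows, 31.9% also occur in Trim17, so its reads may be shared. Hist1h2ap, with the largest log2 difference among the H2A genes (-0.80, SE 0.47, adjusted p = 0.196), read 0.40, 2.39 and 3.48 FPKM in Sg-Con and 0.83, 1.22 and 0 in Sg-C3. Its adjusted p was 0.0300 without Sg-Con replicate 1, its lowest Sg-Con library, and 93.3% of its windows also occur in Hist1h2ao. Hist2h2ac differed little between groups (1.39 ± 0.247 against 1.34 ± 0.421 FPKM, adjusted p = 0.862), and Hist1h2ai was listed at 0 in 3 of the 6 libraries.

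H4 and H3 genes. Hist1h4i, one of many genes for the single H4 protein, read 6.72, 6.44 and 6.96 FPKM in Sg-Con and 3.38, 2.89 and 1.63 in Sg-C3. The Sg-Con values were close together and all above the Sg-C3 values, with a 2.55-fold lower mean in Sg-C3 (6.71 ± 0.260 against 2.63 ± 0.903 FPKM, log2 difference -1.12, SE 0.19, limma adjusted p = 0.00522). Hist1h4m, the other tested H4 gene and the only tested member with a positive difference, read 0.95, 0.21 and 1.25 FPKM in Sg-Con and 1.34, 0.83 and 1.32 in Sg-C3, with overlap (log2 difference 0.30, SE 0.24, adjusted p = 0.332). Without Hist1h4i the summed H4 level was 4.34 ± 0.552 FPKM in Sg-Con and 4.74 ± 2.36 in Sg-C3, so that the lower H4 sum rested on this gene.

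H3 was the faintest class, with 5.08 to 6.41 FPKM summed over 10 genes in Sg-Con and 1.81 to 4.2 in Sg-C3. Hist2h3c2 read 1.39, 1.6 and 0.88 FPKM in Sg-Con and 0.44, 0.27 and 0.72 in Sg-C3. Hist1h3d read 1.71, 0.87 and 1.35 FPKM in Sg-Con and 0.21, 0 and 0.55 in Sg-C3. Neither reached the filter, and both pairs of groups were separate. The replication-independent H3 genes H3f3a and H3f3b, which supply H3.3 throughout the cell cycle, stood at 583 ± 49.2 and 718 ± 82.7 FPKM in Sg-Con, far above all cluster H3 genes on the same per-length scale.

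The 45 members that were not tested never exceeded 1.71 FPKM. Their sum was 18.7 ± 3.03 FPKM in Sg-Con and 13.9 ± 4.97 in Sg-C3, with overlapping groups, and 33 had the higher mean in Sg-Con and 12 in Sg-C3. That share was not counted over all genes, but the table as a whole leaned the same way. Without a filter, the median log2 difference was -0.09 over all 15487 genes and -0.13 over the 62 members. At the estimated depth of 17.6 to 19.3 megareads, 1 read is worth between 0.0611 and 0.158 FPKM in the 55 members whose RefSeq gene spans under 1000 bases, if the authors' gene models have those lengths. By that estimate 32 of the 55 stayed under 10 reads in every library. Tested without any filter, 10 of the 62 members were lower and 1 higher (16.1% lower, against 22.1% of all genes lower and 10% higher). Beside the 6 already given, the lower ones were Hist1h1b, Hist1h2ab, Hist2h3c2 and Hist1h3d (limma adjusted p = 0.0086, 0.0397, 0.0255 and 0.0154). The higher one was Hist1h4c, at 0.26, 0 and 0.28 FPKM in Sg-Con and 0.85, 0.37 and 0.88 in Sg-C3 (adjusted p = 0.0418). These calls rest on few reads. By the depth estimate, the highest library held 5.6 reads for Hist1h4c and 4.6 for Hist1h2ab. It held 10.9 for Hist1h1b, 15.4 for Hist1h3d and 18.1 for Hist2h3c2.

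**Figure D4:**
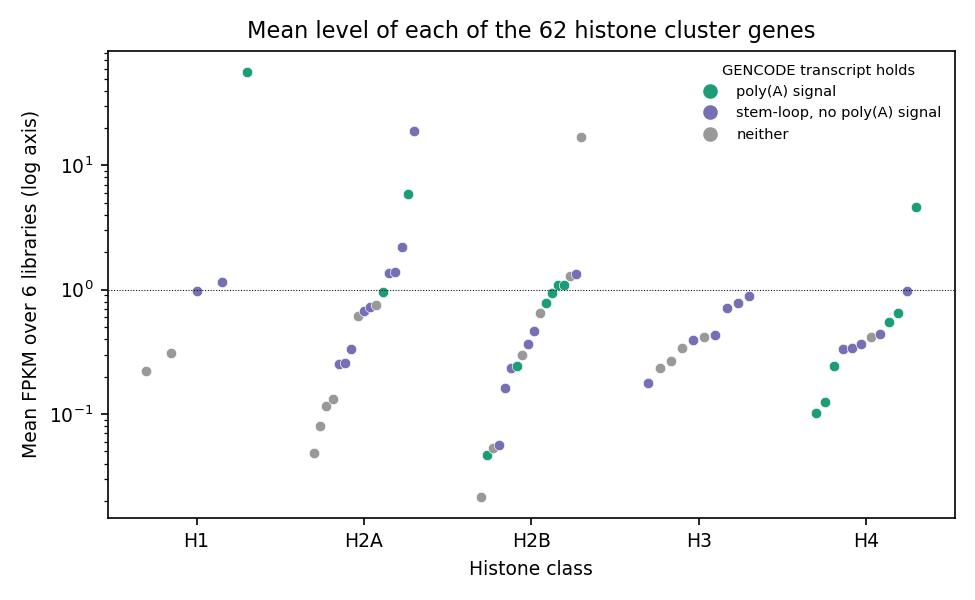
Mean FPKM over 6 libraries of each of the 62 members (y axis, logarithmic), by class. Colour shows what the GENCODE transcript holds: a poly(A) signal in its last 40 bases (with or without the stem-loop), only the stem-loop, or neither. The transcript is the longest protein-coding one, or the longest where none is. The dotted line is 1 FPKM, which 13 members reach, and Hist1h1c stands highest at 56.4.

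The annotated 3′ ends differed among the members with high levels. A poly(A) signal (AATAAA, or its common variant ATTAAA, within the last 40 bases) was found in 15 members, among them Hist1h1c, whose transcript runs on for 840 bases after the stem-loop, Hist3h2a (1643 bases) and Hist1h4i (330 bases), as well as Hist2h2be, in which no stem-loop was found. The Hist1h2bc transcript holds neither element and Hist2h2aa1 ends 35 bases after its stem-loop with no signal. The median of mean levels was 0.777 FPKM over the 15 with a signal, 0.453 over the 28 with only a stem-loop and 0.298 over the 19 with neither, which is a description of annotation and level with wide overlap. Called lower were 3 of 6 tested members with a signal, 1 of 8 with only a stem-loop and 2 of 3 with neither, against 31.7% of all tested genes. These counts include Hist2h2be, with a signal, and Hist1h1d, the 1 with only a stem-loop. Both passed the filter only through Sg-Con, so that they had to differ. The difference between the kinds of 3′ end was not tested. A 36-base window counted as shared if any other annotated gene held it on either strand, and that gene need not be a cluster histone. The main sharer was Gm20633 for Hist2h2aa1 and Trim17 for Hist3h2a. Reads of many members may thus be shared with other annotated genes. Fewer than 50% of windows were unique to the gene in 34 of 62 members, and fewer than 10% in 12. The value was 89.5% for Hist1h1c, 97.0% for Hist1h1d, 98.4% for Hist2h2be, 66.3% for Hist1h2bc, 66.6% for Hist1h4i and 58.2% for Hist1h2ba among the members called lower, and 0% for Hist2h2aa1.

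RNAs known to lack a poly(A) tail were examined beside the histone genes. Of 63 tested small nucleolar RNAs and other such RNAs, 7 were higher in Sg-C3, 2 lower and 54 did not pass, with a median log2 difference of 0.31. Over all tested genes 12.7% were higher and 31.7% lower. RNAs this short can reach 1 FPKM with few reads. The 2 of smallest p passed the filter through 1 group only. Snord42b was listed at 0 in every Sg-Con library and read 2.81 to 3.03 FPKM in Sg-C3. Snord66 read 2.38 to 2.48 FPKM in Sg-Con and was listed at 0 in every Sg-C3 library. Rn7sk, a nuclear RNA that regulates transcription elongation, stood at 8.25 ± 2.67 FPKM in Sg-Con and 28.1 ± 23.2 in Sg-C3 (adjusted p = 0.0547). The part of tail selection in the histone values was not tested.

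The promoter windows of Hist1h1c, Hist1h1d and Hist1h4i, which were called lower, are shown to let their elements be seen. RefSeq windows (GRCm38.p6) from 250 bases before to 50 after the start were found for 56 members. Of the other members called lower, Hist1h2bc and Hist2h2be had no such window, and the window of Hist1h2ba is not shown. Capitals mark matches on either strand to TATAAA (letters of the TATA box, marked wherever they occur), CCAAT (the CCAAT box), ATTTGCAT (the octamer of H2B promoters), AAACACA (a box known from H1 promoters) and either E2F-type motif, TTTCCCGC and, as a further form, TTTGGCGC. The window of Hist1h2ac is given because this H2A gene and Hist1h2bc are transcribed away from each other from starts 251 bases apart, so that it spans the stretch between them.
Hist1h1c, chr13:23738557-23738856, plus strand: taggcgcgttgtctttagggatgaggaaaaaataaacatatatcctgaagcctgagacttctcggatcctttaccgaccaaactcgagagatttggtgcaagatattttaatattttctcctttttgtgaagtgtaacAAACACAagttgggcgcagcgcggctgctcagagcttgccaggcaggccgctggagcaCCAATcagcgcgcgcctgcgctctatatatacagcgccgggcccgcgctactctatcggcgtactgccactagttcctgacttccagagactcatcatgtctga
Hist1h1d, chr13:23554782-23555081, plus strand: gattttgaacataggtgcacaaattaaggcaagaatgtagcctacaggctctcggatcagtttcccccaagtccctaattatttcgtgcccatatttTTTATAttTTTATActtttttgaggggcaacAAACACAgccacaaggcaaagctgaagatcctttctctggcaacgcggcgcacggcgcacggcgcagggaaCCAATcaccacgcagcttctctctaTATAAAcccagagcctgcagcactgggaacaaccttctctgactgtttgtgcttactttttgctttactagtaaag
Hist1h2ac, chr13:23683910-23684209, minus strand: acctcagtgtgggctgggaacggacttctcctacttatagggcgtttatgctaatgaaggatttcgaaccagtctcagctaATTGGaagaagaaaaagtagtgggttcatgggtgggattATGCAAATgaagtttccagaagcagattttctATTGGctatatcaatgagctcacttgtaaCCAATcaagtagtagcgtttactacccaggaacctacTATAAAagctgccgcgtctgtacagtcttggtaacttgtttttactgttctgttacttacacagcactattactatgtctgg
Hist1h4i, chr13:22041313-22041612, minus strand: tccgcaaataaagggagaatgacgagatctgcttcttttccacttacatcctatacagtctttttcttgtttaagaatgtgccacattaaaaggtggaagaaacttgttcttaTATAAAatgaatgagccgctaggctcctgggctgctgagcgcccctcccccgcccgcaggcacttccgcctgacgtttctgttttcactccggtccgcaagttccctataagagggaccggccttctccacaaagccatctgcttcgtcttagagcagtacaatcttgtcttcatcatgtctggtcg

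Hist1h1c and Hist1h1d share an AAACACA box (beginning at -112 and -122 from the start) and a CCAAT box (at -54 and -51), whereas the Hist1h4i window holds no CCAAT. The window between Hist1h2ac and Hist1h2bc holds 3 CCAAT boxes and the octamer, read on the other strand. Over the 57 member windows, CCAAT occurred in 49, in all windows of H1, H2A, H2B and H3 and in 3 of 11 H4 windows, against 37.4% of 32851 RefSeq windows. TATAAA occurred in 56.1% of member windows and 13.6% of all windows. The octamer was found in 6 of 16 H2A and 7 of 16 H2B windows and in none of the other classes, against 1.74% of all windows, and AAACACA in 4 of 5 H1, 2 of 16 H2A and 2 of 16 H2B windows, against 7.18%. The E2F-type motifs occurred in 1 member window (1.75%), against 1.56% of all windows. Hist1h2ac itself, which has the shared window in front of it, was near the floor, at 0.56, 0 and 0.59 FPKM in Sg-Con and listed at 0 in 2 Sg-C3 libraries and at 0.36 in the third. So 2 genes that face each other across 1 promoter region differed widely in level on the per-length scale.

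Histones made outside S phase were compared next. Of 11 tested replication-independent histone genes 3 fell, none rose and 8 did not pass, a share of lower calls near the 31.7% of all tested genes. Their median log2 difference was -0.13 as deposited and 0.03 after median-ratio scaling. The largest difference was in H1f0, the linker histone H1.0 of non-dividing cells, which fell from 55.8 ± 10.2 to 21.1 ± 4.75 FPKM (log2 difference -1.36, SE 0.19, limma adjusted p = 0.00297), beside -1.48 for Hist1h1c. H2afv and H2afx, H2A variants linked to promoters and to DNA breaks, fell with log2 differences of -0.69 and -0.53 (adjusted p = 0.00664 and 0.0335), but H2afx did not pass after median-ratio scaling or quantile normalization. H2afz did not pass (217 ± 21.9 against 243 ± 3.43 FPKM, adjusted p = 0.181), nor did H3f3a (log2 difference -0.16, adjusted p = 0.173) or H3f3b (-0.12, adjusted p = 0.384). H1fx, a further linker histone gene, had a positive difference that did not pass (0.52, adjusted p = 0.0916). After scaling, 1 gene of this list was called higher, H2afz after median-ratio scaling and H1fx after quantile normalization.

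Of 19 tested genes that make and finish histone mRNA, 8 fell and none rose, against 31.7% of all tested genes lower, with a median log2 difference of -0.24. After median-ratio scaling 4 fell, against 19.1% of genes, and after quantile normalization 5 did, against 21.96%. Cpsf2 and Ccne1 were among those that no longer passed under either scaling. Among the 8 called as deposited was Cpsf3, the endonuclease that cuts histone pre-mRNA. It stood at 19.1 ± 2.05 against 11.3 ± 1.07 FPKM (log2 difference -0.70, limma adjusted p = 0.00459). The 8 also held its scaffold partner Sympk (-0.60), and Cpsf2 and Cstf2 (-0.32 and -0.45). Cdk2 and Ccne1, the kinase and cyclin that activate NPAT, fell with log2 differences of -0.58 and -0.68, and the transcription factor gene E2f1 with -0.69. The genes most specific to histone messages did not pass: Slbp stood at 24.2 ± 3.22 and 24.9 ± 1.12 FPKM (adjusted p = 0.747), Npat at 2.06 ± 0.127 and 2.28 ± 0.416 (0.571) and Casp8ap2, which codes for the NPAT partner FLASH, at 1.76 ± 0.406 and 2.04 ± 0.237 (0.421).

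**Figure D5:**
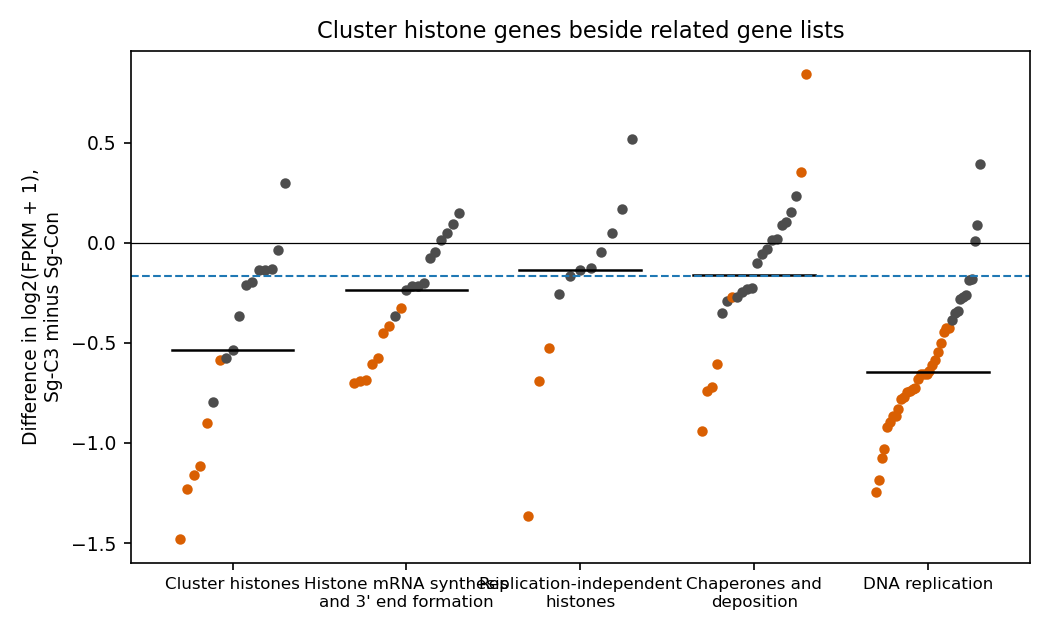
Difference in log2(FPKM + 1), Sg-C3 minus Sg-Con, for each tested gene of 5 lists, orange where the adjusted p is under 0.05, with the median of each list as a black line. The cluster histones and the DNA replication genes have the lowest medians (-0.54 and -0.65), and the other lists lie near the dashed median of all tested genes (-0.16). Values are as deposited, and the median of the replication-independent histones turned to 0.03 after median-ratio scaling.

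Most DNA replication genes were lower. Of 38 tested, 27 fell and none rose, against 31.7% of all tested genes lower, with a median log2 difference of -0.65. After median-ratio scaling 18 fell and 1, Cdt1, rose, against 19.1% of genes lower, with a median of -0.50. Rrm2, a subunit of the enzyme that makes deoxynucleotides, fell from 18.0 ± 1.88 to 8.13 ± 1.85 FPKM (limma adjusted p = 0.00345), and Pole2, Rrm1 and Dnmt1 had log2 differences of -1.19, -0.83 and -1.25. Pcna, the sliding clamp, did not pass (174 ± 20.0 against 184 ± 12.7 FPKM, adjusted p = 0.545), and neither did the proliferation marker Mki67 (27.0 ± 6.39 against 37.4 ± 8.51 FPKM, adjusted p = 0.117). Of 22 tested histone chaperone and deposition genes 5 fell, including Asf1b (log2 difference -0.94) and Chaf1a (-0.72). Both this share and that of the 2 that rose lie below the 31.7% and 12.7% of all tested genes. The 2 that rose were Daxx (0.84), an H3.3 chaperone gene, and Hat1 (0.36), a histone acetyltransferase gene.

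Markers of several other cell types differed between the groups. For comparison, 12.7% of all tested genes were called higher and 31.7% lower. Not every measured marker passed the filter. Tested were 4 of 9 carcinoma, 7 of 15 lymphocyte, 11 of 13 fibroblast, 6 of 12 dendritic cell and 7 of 12 neutrophil markers. Carcinoma markers summed to 33.5 to 65.1 FPKM in Sg-Con and 4.10 to 8.82 in Sg-C3, with 3 of 4 tested markers lower and Krt8 at 14.3 ± 6.73 and 0.323 ± 0.0551 FPKM. Krt8 passed the filter only through Sg-Con, so that it had to differ. Cdh1 and Krt20, also called lower, reached 1 FPKM in both groups. T and NK lymphocyte markers summed to 3.72 to 9.06 FPKM in Sg-Con and 51.5 to 61.6 in Sg-C3, with all 7 tested markers higher. Of these, Gzma, Klrb1c, Gzmb, Nkg7 and Cd3g passed the filter only through Sg-C3, so that they had to differ. Klrk1 and Cd4 reached 1 FPKM in both groups. Of fibroblast markers 5 of 11 were higher and 2 lower (93.3 to 143 against 195 to 274 FPKM summed), of dendritic cell markers 5 of 6 were higher (19.0 to 62.5 against 229 to 282), of neutrophil markers 4 of 7 were higher (140 to 221 against 390 to 1332), and the 5 measured B cell markers summed to 1.76 to 4.62 against 4.72 to 6.91. The single tested one, Cd79b, read 1.10 to 4.23 FPKM in Sg-Con and 3.56 to 6.02 in Sg-C3 and did not pass. The dendritic cell marker Kit, called higher, passed the filter only through Sg-C3 and so had to differ. None of the markers measured stood at 0 in all libraries. The 12 macrophage markers were all present and summed to 17238.9 to 18981.7 FPKM in Sg-Con and 10632.9 to 13305.7 in Sg-C3, without overlap. Most of the difference in this sum lay in 1 gene, Lyz2. Lower were Mrc1 (700 ± 119 against 134 ± 40.045 FPKM), Lyz2 (7712 ± 915 against 3378 ± 579), Cd68 (725 ± 32.3 against 403 ± 38.5), Itgam (523 ± 46.5 against 304 ± 43.3) and Mertk (42.3 ± 10.1 against 13.7 ± 6.63), and 7 did not pass, among them Adgre1 (173 ± 11.6 against 172 ± 29.8). The part of these cells in the histone values was not tested. Total FPKM per library ran from 474578.5 to 487357.9, and libraries correlated across genes at Pearson r of 0.986 to 0.990 within groups and 0.945 to 0.974 between them. C3 itself read 75.9 ± 15.3 FPKM in Sg-Con and 173 ± 24.5 in Sg-C3, which does not check the labels because the guide was in the tumour cells.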

How the data were processed

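RNA of 6 macrophage samples was isolated with Trizol and made into libraries, for which 2 kits, TruSeq and MGIEasy, are named, per the labels' protocols. Bowtie 0.12.2 and the build mm8 are named, without their roles, per the submitters' processing notes. The deposited values are FPKM, 1 per gene and library, per the file headers. For the FPKM calculation the tool was not given in the sources used here, nor was a strand setting, so overlapping genes cannot be told apart. The 11198 genes that reached 1 FPKM in 3 or more libraries entered a limma fit (version 3.58.1, R 4.3.3, trended eBayes) of log2(FPKM + 1), Sg-C3 minus Sg-Con, with Benjamini-Hochberg adjustment over all tested genes and a threshold of 0.05. This scale understates changes of low genes. The log2 differences were computed here from the authors' FPKM. SE is limma's, SD is over 3 libraries, and fold is the ratio of mean FPKM. The script was tested on simulated data.

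Depth was estimated from 402 short non-coding genes, whose values of up to 8 reads fell within 0.1 of whole reads in 88.1% to 94.2% of cases once 36 bases were taken from each RefSeq length. The value of 1 read was chosen to give the most whole values. Symbols are the table's, and all 62 members were matched to RefSeq (GRCm38.p6) by gene identifier and to GENCODE M21 by symbol. That build is not mm8, and coordinates are given only for RefSeq windows. Python 3.11.15 with pandas 2.3.3 was used for counts and sums.

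The members, gene lists and tests were chosen with earlier results of these data known. Named genes are the called members, the 2 members of highest mean and the tested member of largest difference in each class, the 4 of smallest p, and called or lowest-p genes of the other lists, with Slbp, Npat, Casp8ap2, Pcna, Mki67, H3f3a, H3f3b, H2afz, H2afx and C3 in every case. Members named outside this rule (Hist1h1a, Hist1h1b, Hist1h1e, Hist1h2ab, Hist1h2ac, Hist1h2ai, Hist1h4c, Hist2h2aa2, Hist2h2ac and those named for a sequence) were chosen after their values were seen, as were H1fx, Rn7sk, Adgre1 and Cdt1. Alternatives were pseudocount 0.1, no filter, a mean of at least 5 FPKM, leaving out each library, median-ratio scaling, quantile normalization, a covariate for title style, limma's array weights and robust prior, and a threshold of 0.1. A deposited column of cluster numbers was not used.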

Additional observations from a re-analysis of the deposited data

How the results depend on the processing

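Over all alternatives, Hist1h1c and Hist1h2bc stayed lower and past the threshold in every fit (log2 differences -1.7004 to -1.32 and -1.30 to -1.004), and Hist1h4i in every fit that tested it (-1.38 to -0.90). Hist1h1d and Hist2h2be passed wherever they were tested but were not tested without any 1 of the Sg-Con libraries or with a mean of at least 5 FPKM, and Hist2h2be not with a mean of at least 1 FPKM, a filter chosen after seeing the data. Of the values of single tested members under the alternatives, 242 kept their side of the threshold, 4 lost it (all Hist1h2ba) and 3 gained it. Members called lower numbered 10, with 1 higher, without a filter, 2 with a mean of at least 5 FPKM (4 tested), and between 3 and 6 with each library left out, 3 without Sg-Con replicate 3. Over all genes, lower calls numbered 2134 after median-ratio scaling, where 50.5% of calls were lower (57.1% after quantile normalization) against 71.5% as deposited. With each library left out, lower calls ran from 1970 to 3639 and higher calls from 810 to 1423, with 879 without Sg-C3 replicate 1 and 810 without Sg-C3 replicate 2. The ratio of summed histone FPKM ran from 0.469 to 0.5645. Summing the near-identical pairs, chosen after seeing the data, left the members called at 6. No paired analysis was possible because the labels give no replicate numbers shared between groups. By the depth estimate, 32 of 55 short members stayed under 10 reads in every library.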
